A study of Homo sapiens with 6 samples.

Results

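The tumour necrosis factor (TNF) superfamily was examined through 44 genes chosen by name: 16 ligands, 24 receptors and 4 proteins that carry the receptors' death signal. Of these, 43 had at least 1 probe set among the 21357 genes named on the arrays, and the ligand CD40LG was not analysed here. The 43 genes were read by 108 probe sets, 102 that name 1 gene and 6 that name a member together with other genes. RNA came from an established line of human breast tumour cells, MDA-MB-436, which the submitters describe as epithelial. The 3 tested arrays came from cells labelled as transfected with NF1-C2S, which the series record calls a stable transfection with an NF1-C2 expression plasmid, and the 3 reference arrays came from wild type cells of the same line. Both kinds of cells grew in serum-containing medium with insulin, and the construct's name refers to nuclear factor I-C, a DNA-binding transcription factor. The labels name no cells with an empty plasmid and do not say whether a clone or a pool was profiled. Whether the replicates were grown as separate cultures is not said, so the p-values reflect only the array-to-array spread, which may be technical.

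TNF superfamily ligands are mostly trimeric proteins of the cell surface, many of which can be shed, and they signal by clustering their receptors. One class of receptors carries an intracellular death domain. It recruits the adaptors FADD or TRADD and, through FADD, the initiator caspase-8 (CASP8), which the related protein CFLAR (also called c-FLIP) holds in check. Other receptors bind TRAF proteins directly and activate NF-kappaB, and decoy receptors bind ligand without passing on a complete signal. In epithelial tumour cells the family is known for setting sensitivity to killing by immune cells and for inflammatory signalling.

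Over all probe sets, arrays correlated at 0.992 to 0.997 within the transfected group, 0.996 within the wild type group and 0.971 to 0.976 between the groups. The gene of the labelled factor, NFIC, had 4 probe sets, and their log2 changes were -0.51, -0.22, -0.11 and 0.22, none past the threshold (limma adjusted p = 0.0536 to 0.568). NFIC therefore gives no check of the labels, and each direction below rests on them. Of 6 epithelial markers, the keratins KRT7 and KRT18 fell by 0.98 and 0.93 (limma adjusted p = 0.000113 and 0.000209), and EPCAM, KRT8, CDH1 and KRT19 did not pass. KRT18 read 11.62 in transfected and 12.55 in wild type cells, while CDH1 and KRT19 were below the median of all values in both groups. Of 4 mesenchymal markers, fibronectin (FN1) fell by 2.77 and vimentin (VIM) by 0.52 (adjusted p = 5.84e-06 and 0.00132), and CDH2 and SPARC did not pass. The mean level of the epithelial markers was 6.27 to 6.40 on transfected and 6.64 to 6.76 on wild type arrays, and that of the mesenchymal markers was 8.18 to 8.34 and 8.97 to 9.15. Of 15 leukocyte markers, 9 lay below that median in both groups, and their mean level was 4.44 to 4.56 on transfected and 4.45 to 4.51 on wild type arrays. The leukocyte markers CD14 (log2 change 0.82) and ITGAM (-1.21) passed the threshold. The part of these markers in the results was not tested. In RNA from whole cultures, fewer cells with a transcript and less of it per cell cannot be told apart.

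Expression values are on the log2 scale, changes are transfected minus wild type, and a gene was called where its adjusted p was under 0.05 (limma, Benjamini-Hochberg over 54613 probe sets). Each gene was represented by its brightest probe set. A group mean below the median of all values, 4.82, is called dim, because the processing compresses differences there, and folds against a dim group are given as "at least". Of the 43 genes, 3 were higher and 6 lower in transfected cells, which is 20.9% of them, beside 29.0% of all genes (13.9% higher and 15.1% lower). At the level of probe sets, 10 of 108 were higher and 15 lower (23.1%), beside 22.2% of all probe sets (10.8% higher and 11.4% lower). The share called was thus below the background for member genes and near it for member probe sets, differences that were not tested. The median log2 change of the members was -0.03, against 0.001 for all genes. A total of 18 members were dim in both groups, and none of these was called. Among the 25 that were not, 9 were called (36%), beside 41.8% of all such genes. In all 9 called members the 3 transfected arrays did not overlap the 3 wild type arrays. That is no separate support, since the calls rest on the same values. In 13 of 43 members (30.2%) the groups did not overlap, beside 43.1% of all genes. The same held for 36 of 108 member probe sets (33.3%), beside 34.9% of all probe sets.

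**Figure D1:**
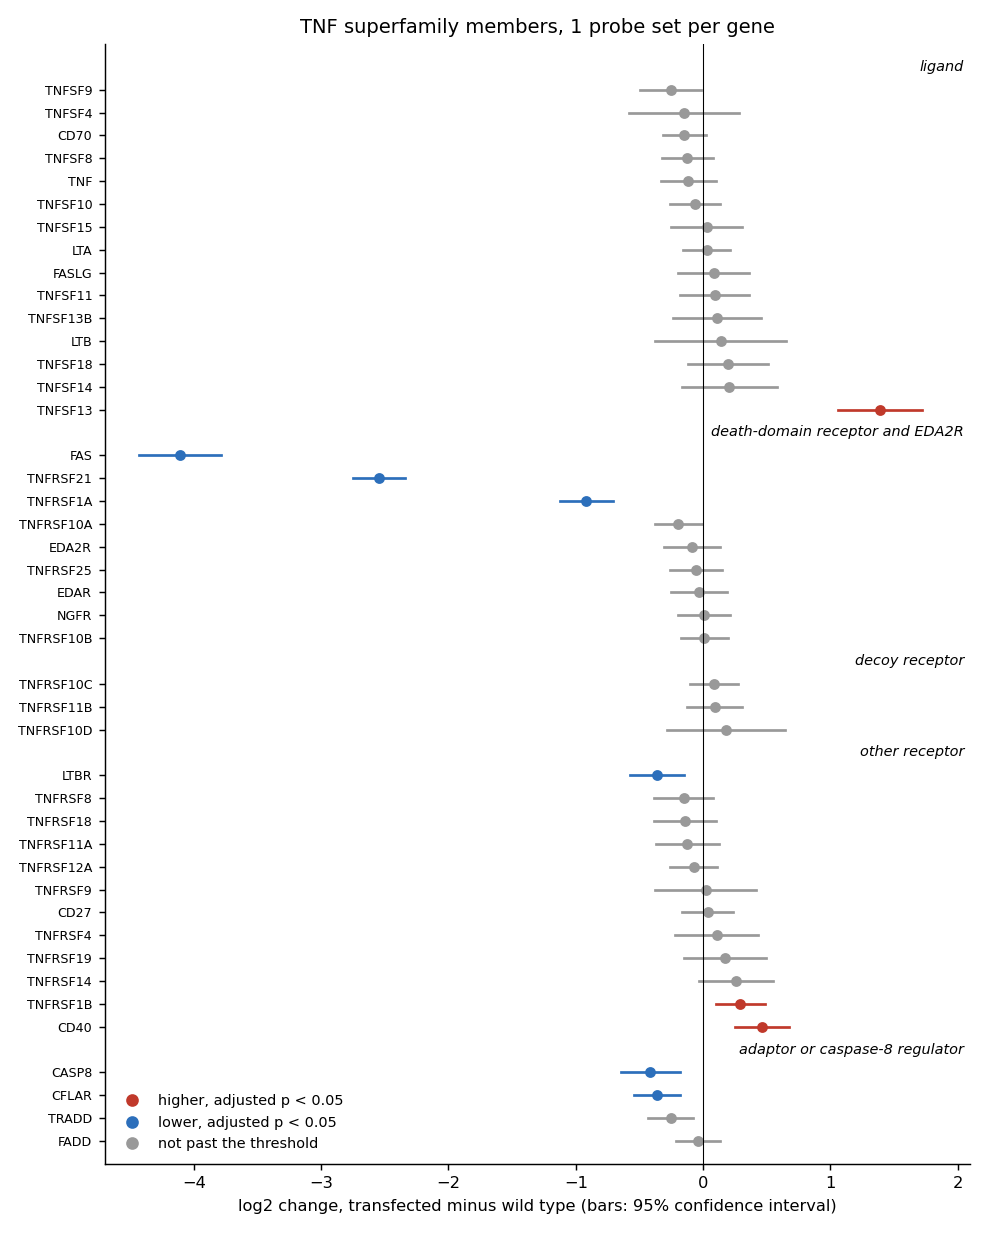
Log2 change of each of the 43 members (x axis, transfected minus wild type, points) with its 95% confidence interval (bars), grouped by role. FAS at -4.11 and TNFRSF21 at -2.55 lie far below the other members, TNFSF13 at 1.39 lies above them, and 34 members did not pass the threshold.

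The 250 bases before the start of the 3 members with a change of more than 1 log2 unit are shown because the labelled factor binds DNA and these genes are the ones that moved most. They are from RefSeq, GRCh38.p14, 5′ to 3′ on the gene's strand, and capitals mark TTGGC, the core motif of nuclear factor I, on either strand. FAS lies on the plus strand (chr10:88990548-88990797), TNFRSF21 on the minus strand (chr6:47309906-47310155) and TNFSF13 on the plus strand (chr17:7558500-7558749).
FAS: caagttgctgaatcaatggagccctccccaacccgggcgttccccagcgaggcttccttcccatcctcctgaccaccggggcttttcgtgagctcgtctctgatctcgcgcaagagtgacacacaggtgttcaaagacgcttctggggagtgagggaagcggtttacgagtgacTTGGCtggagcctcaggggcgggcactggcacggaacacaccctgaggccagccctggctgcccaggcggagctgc
TNFRSF21: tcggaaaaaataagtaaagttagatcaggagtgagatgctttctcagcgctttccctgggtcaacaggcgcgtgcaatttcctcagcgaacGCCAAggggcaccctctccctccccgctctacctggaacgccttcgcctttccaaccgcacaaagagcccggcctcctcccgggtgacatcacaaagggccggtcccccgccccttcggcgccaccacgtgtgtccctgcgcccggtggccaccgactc
TNFSF13: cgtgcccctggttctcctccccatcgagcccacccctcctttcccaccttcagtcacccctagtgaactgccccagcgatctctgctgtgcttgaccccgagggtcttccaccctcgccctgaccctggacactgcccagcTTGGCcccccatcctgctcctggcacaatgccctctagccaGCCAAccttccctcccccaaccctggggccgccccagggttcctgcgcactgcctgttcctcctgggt
The core motif occurred 1 time in the windows of FAS and TNFRSF21 and 2 times in that of TNFSF13. It can overlap the CCAAT box, since GCCAA and CCAAT share letters. It was present in 13 of the 30 member windows in the table (43.3%), beside 40.8% of all 35116 windows, and in 2 of 6 members that fell and 1 of the 2 with a window that rose. The full palindrome, TTGGC followed after any 5 bases by GCCAA, was in 0 of the 30 and in 0.0285% of all windows. The NF-kappaB consensus, searched on both strands, was in 5 of 30 (16.7%), beside 5.21% of all windows, and CFLAR was the only called member that held it. These matches describe letters only.

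Receptors with a death domain held the large falls. FAS, a receptor through which cytotoxic lymphocytes can trigger apoptosis, fell by at least 17.2-fold. TNFRSF21 (death receptor 6) fell 5.84-fold and TNFRSF1A, the main TNF receptor of most cells, fell 1.89-fold. Of 9 genes in this class, counted with the ectodysplasin receptor EDA2R, which lacks the domain, 3 fell, 0 rose and 6 did not pass. The share called was 33.3%, near the 29.0% of all genes (15.1% lower). Among genes not dim in both groups 41.8% were called, but the 9 genes of the class include NGFR, which was dim in both groups. At an unadjusted p under 0.05, TNFRSF10A was a further gene of the class below wild type.

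FAS read 3.99, 4.12 and 4.53 on the transfected arrays, against 8.39, 8.27 and 8.30 on the wild type arrays. All transfected values were dim and all wild type values were well above the median. The means were 4.21 ± 0.28 and 8.32 ± 0.06 (SD, n = 3 each), and the log2 change was -4.11 with an SE of 0.14 (limma adjusted p = 2.75e-06). FAS has 5 probe sets, and 4 of them fell. Probe set 215719_x_at averaged 3.69 ± 0.31 in transfected and 7.50 ± 0.09 in wild type cells (log2 change -3.81, adjusted p = 5.19e-06). For 216252_x_at the means were 3.27 ± 0.24 and 6.84 ± 0.15 (-3.57, 4.57e-06), and for 204781_s_at they were 3.91 ± 0.18 and 6.84 ± 0.26 (-2.93, 1.46e-05). In each of these 3 the transfected cells were dim, as on the brightest probe set. The remaining one, 233820_at, was dim in both groups at 3.87 ± 0.05 and 3.82 ± 0.05 (log2 change 0.05, adjusted p = 0.748). It is also the only FAS probe set whose name does not end in _s_at or _x_at, endings given to probe sets with probes shared between transcripts or matching other sequences. Without such probe sets the fall of FAS was therefore not seen (0.05, adjusted p = 0.802).

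TNFRSF21, a death receptor studied in neurons and lymphocytes, read 8.68, 8.72 and 8.48 in transfected cells, against 11.19, 11.16 and 11.17 in wild type cells. No array was dim, and the wild type arrays differed by only 0.03. The means were 8.63 ± 0.13 and 11.17 ± 0.02 (log2 change -2.55, SE 0.09, limma adjusted p = 3.05e-06). Its other probe set, 214581_x_at, fell as well, to 6.67 ± 0.28 in transfected cells against 9.56 ± 0.07 in wild type cells (-2.89, adjusted p = 1.05e-05).

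TNFRSF1A, on its only probe set, 207643_s_at, read 9.92, 9.91 and 9.86 in transfected cells, against 10.71, 10.76 and 10.97 in wild type cells. The lowest wild type array was above every transfected array. The log2 change was -0.92 (SE 0.09, limma adjusted p = 0.000263), and TNFRSF1A remained clearly expressed in both groups.

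The receptors of the death ligand TRAIL differed little. TNFRSF10B (death receptor 5) read 10.08 ± 0.02 in transfected and 10.07 ± 0.09 in wild type cells, a log2 change of 0.01 with a 95% interval from -0.17 to 0.19. None of its 4 probe sets was called. TNFRSF10A (death receptor 4) read 8.85, 8.95 and 8.88 in transfected cells, against 9.09, 9.17 and 9.01 in wild type cells. Those groups did not overlap, but the change of -0.20 missed the threshold (limma adjusted p = 0.135). Another of its probe sets, 241371_at, fell by 0.37 (adjusted p = 0.0165), and the mean of its 3 probe sets changed by -0.27 (adjusted p = 0.0302). Decoy receptors TNFRSF10C, TNFRSF10D and TNFRSF11B (osteoprotegerin) changed by 0.09, 0.18 and 0.09 and were not called. TNFRSF10D and TNFRSF11B were dim in both groups. TNFRSF25, EDAR, EDA2R and NGFR changed by -0.05, -0.03, -0.09 and 0.01, and the nerve growth factor receptor NGFR was dim in both groups.

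**Figure D2:**
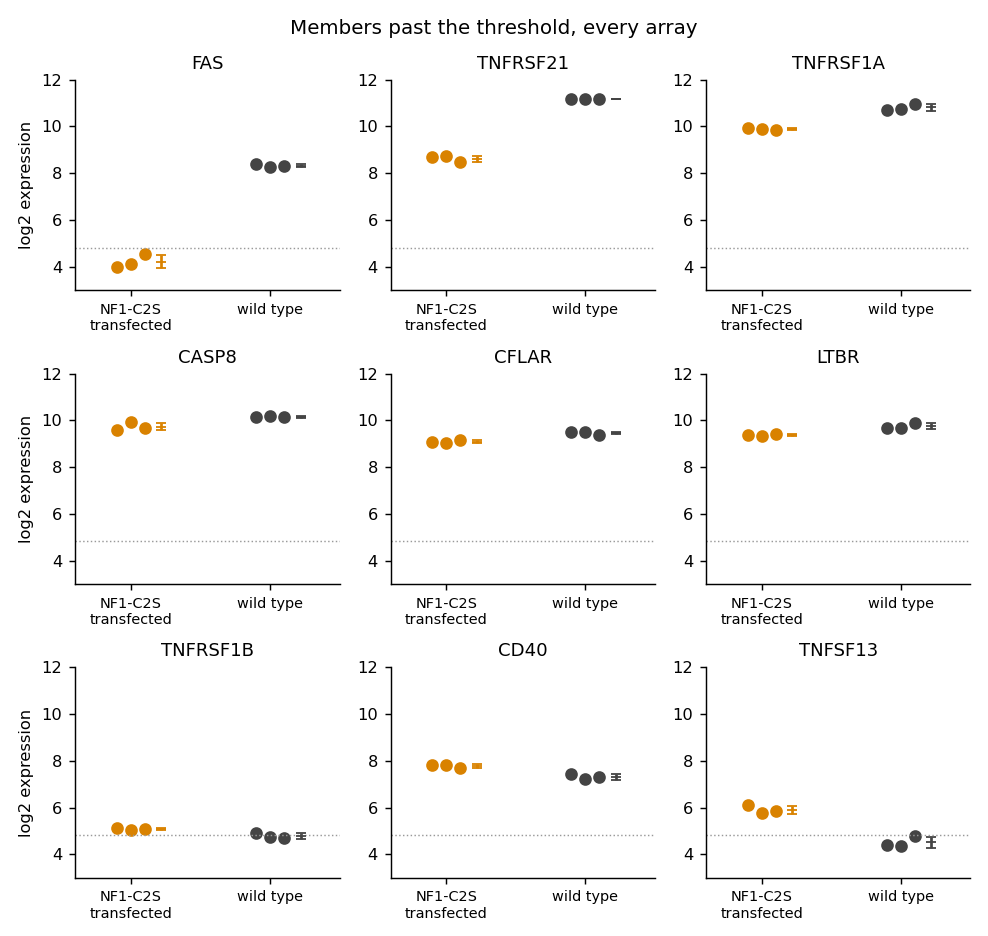
Log2 expression on each array (points), with mean and SD beside them, for the 9 members past the threshold, NF1-C2S transfected at left and wild type at right. The dotted line is the median of all values, 4.82, and FAS lies below it on all 3 transfected arrays and near 8.3 on the wild type arrays.

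CASP8 and CFLAR, which lie near each other on chromosome 2, were both lower. CASP8 read 9.59, 9.92 and 9.69 in transfected cells, against 10.14, 10.18 and 10.12 in wild type cells (log2 change -0.41, SE 0.10, limma adjusted p = 0.0196). Another CASP8 probe set, 207686_s_at, fell by 0.32 (adjusted p = 0.022), and the third, dim in both groups, read 0.15 (0.502). The call of CASP8 was lost without wild type replicate 1, 2 or 3 or transfected replicate 3 (adjusted p = 0.0596, 0.0701, 0.0567 and 0.0677) and for the mean of its probe sets (-0.19, 0.0811). CFLAR read 9.09, 9.03 and 9.15 in transfected cells, against 9.49, 9.48 and 9.39 in wild type cells (-0.36, SE 0.08, adjusted p = 0.0111). Of the 14 CFLAR probe sets 4 fell, 0 rose and 10 did not pass, with changes from -0.56 to 0.11. All 4 that fell end in _x_at or _s_at, and the brightest of the others read -0.34 (adjusted p = 0.184). Neither adaptor passed. FADD changed by -0.04 (95% interval -0.21 to 0.14), and TRADD by -0.26 with an adjusted p of 0.0501. TRADD read 7.21, 7.22 and 7.11 in transfected cells, against 7.39, 7.42 and 7.50 in wild type cells, groups that did not overlap, and it passed under 5 of 17 alternative settings.

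Among the 12 other receptors 2 rose, 1 fell and 9 did not pass (25% called, beside 29.0% of all genes). CD40, a receptor of antigen-presenting cells that many carcinoma cells also carry, read 7.82, 7.83 and 7.68 in transfected cells, against 7.44, 7.21 and 7.30 in wild type cells. Every transfected array was above every wild type array. The log2 change was 0.46 (SE 0.09, limma adjusted p = 0.00813), or 1.38-fold. All 4 CD40 probe sets rose, the others by 1.09, 0.80 and 0.31 (adjusted p = 0.00325, 0.0419 and 0.0422), and the last of these was dim in both groups. TNFRSF1B, the second TNF receptor, read 5.11, 5.06 and 5.07 in transfected cells, against 4.91, 4.76 and 4.69 in wild type cells, close to the median of all values. Its rise of 0.29 (adjusted p = 0.0412) was lost in 7 of 17 alternative settings (up to 0.128), among them without wild type replicate 2 or 3 (0.12 and 0.128) and without transfected replicate 1, 2 or 3 (0.0845, 0.0959 and 0.0963).

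LTBR, the lymphotoxin-beta receptor that drives non-canonical NF-kappaB signalling, read 9.38, 9.33 and 9.43 in transfected cells, against 9.65, 9.68 and 9.89 in wild type cells. Its fall of 0.36 (limma adjusted p = 0.024) was the only call among 4 probe sets and was lost for their mean (-0.14, 0.273). That call was also lost without wild type replicate 3 (0.0667) or transfected replicate 2 or 3 (0.0837 and 0.0506). TNFRSF9 (4-1BB) read 7.41 in transfected and 7.39 in wild type cells on its brightest probe set, and another, 238950_at, rose by 0.38 (adjusted p = 0.0256). TNFRSF12A, the receptor of TWEAK, was strongly expressed in both groups at 10.56 ± 0.02 and 10.64 ± 0.09 (-0.07, 95% interval -0.26 to 0.11). TNFRSF4, TNFRSF8, TNFRSF11A, TNFRSF14, TNFRSF18, TNFRSF19 and CD27 changed by 0.11, -0.15, -0.12, 0.26, -0.14, 0.17 and 0.04 without passing. TNFRSF8, TNFRSF11A, TNFRSF19 and CD27 were dim in both groups.

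**Figure D3:**
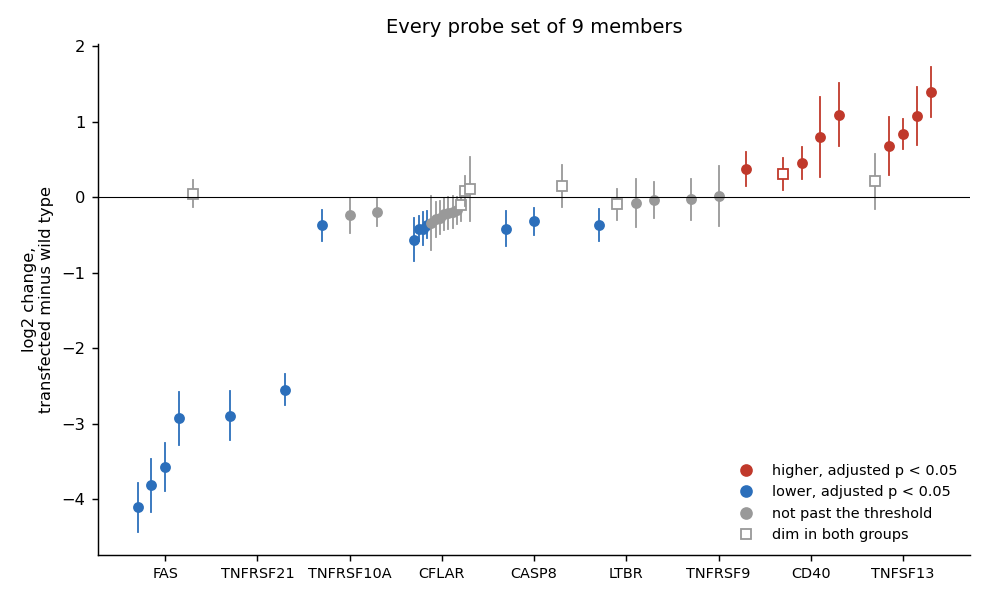
Log2 change (y axis, transfected minus wild type) with 95% confidence interval for every probe set of the 9 members that have several and at least 1 call. Open squares are dim in both groups, and 4 of 5 FAS probe sets lie between -4.11 and -2.93 while the dim one reads 0.05.

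Of the 15 ligands measured, 1 rose, 0 fell and 14 did not pass at the adjusted threshold, while TNFSF9 alone among those 14 had an unadjusted p under 0.05 (0.041). The share of ligands called was 6.67%, beside 29.0% of all genes. A total of 11 ligands were dim in both groups, and no such member was called. TNFSF13 (APRIL), a survival factor for plasma cells, read 6.09, 5.77 and 5.86 in transfected cells, against 4.39, 4.35 and 4.80 in wild type cells. All wild type values were dim, so the rise was at least 2.63-fold, with a log2 change of 1.39, an SE of 0.14 and a limma adjusted p of 0.000304. The 3 further probe sets past the threshold, which name TNFSF13 together with the readthrough gene TNFSF12-TNFSF13, rose by 1.08, 0.84 and 0.68. All 4 end in _x_at, and the only other one, dim in both groups and naming 3 genes, read 0.21 (adjusted p = 0.449). The neighbouring TNFSF12 (TWEAK), which is not one of the 44, rose by 0.84 on a probe set shared with the same readthrough gene (adjusted p = 0.00193).

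CD70, the ligand of CD27, was above the median of all values on every array. It read 8.02, 7.99 and 8.0 in transfected cells, against 8.11, 8.21 and 8.13 in wild type cells. The groups did not overlap, yet the change of -0.15 (95% interval -0.32 to 0.02) did not pass (limma adjusted p = 0.23). TNFSF9 (4-1BB ligand) changed by -0.26 (adjusted p = 0.138) and LTB by 0.14 (0.769). TNF itself read 4.28, 4.07 and 4.11 in transfected cells, against 4.37, 4.17 and 4.27 in wild type cells. TNF was thus dim on every array, with a change of -0.12 (adjusted p = 0.489). FASLG, the ligand of FAS, was dim at 4.41 ± 0.23 in transfected and 4.33 ± 0.06 in wild type cells. TNFSF10 (TRAIL) was also dim, at 3.21 ± 0.07 and 3.27 ± 0.10. LTA, TNFSF4, TNFSF8, TNFSF11, TNFSF13B, TNFSF14, TNFSF15 and TNFSF18, all dim in both groups, changed by -0.15 to 0.21.

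Several members lie side by side in the genome, so each was set against the 10 measured genes on either side (order from the RefSeq annotation of GRCh38.p14). FAS on chromosome 10 and TNFRSF21 on chromosome 6 stood below all 20 of their neighbours, whose median changes were 0.05 and 0.001. Neighbours could be dim in both groups, as CD27 near TNFRSF1A was, and the dim ones were not counted. Since differences are compressed in dim genes, the medians given here can miss a shift shared by the expressed genes of a region. The counts of neighbours stand beside 13.9% higher and 15.1% lower of all genes. Near FAS, 4 neighbours were higher and 3 lower, and near TNFRSF21, 0 were higher and 1 lower. TNFRSF1A and LTBR lie 2 genes apart on chromosome 12, and 6 of the 20 neighbours of TNFRSF1A were lower and 0 higher (median -0.04). Those 6 include LTBR. CASP8 and CFLAR shared a region in which 4 neighbours were higher and 4 lower (medians -0.05 and -0.04). Each of these 2 members is counted among the lower neighbours of the other. Around TNFSF13 on chromosome 17, 9 of 20 neighbours were higher and 0 lower, with a median of 0.28, and subtracting that median left 1.12 (limma adjusted p = 0.0011). Around CD40 on chromosome 20, 6 were higher and 1 lower (median 0.18), and the rise of CD40 less that median was 0.29, which did not pass (0.0622).

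**Figure D4:**
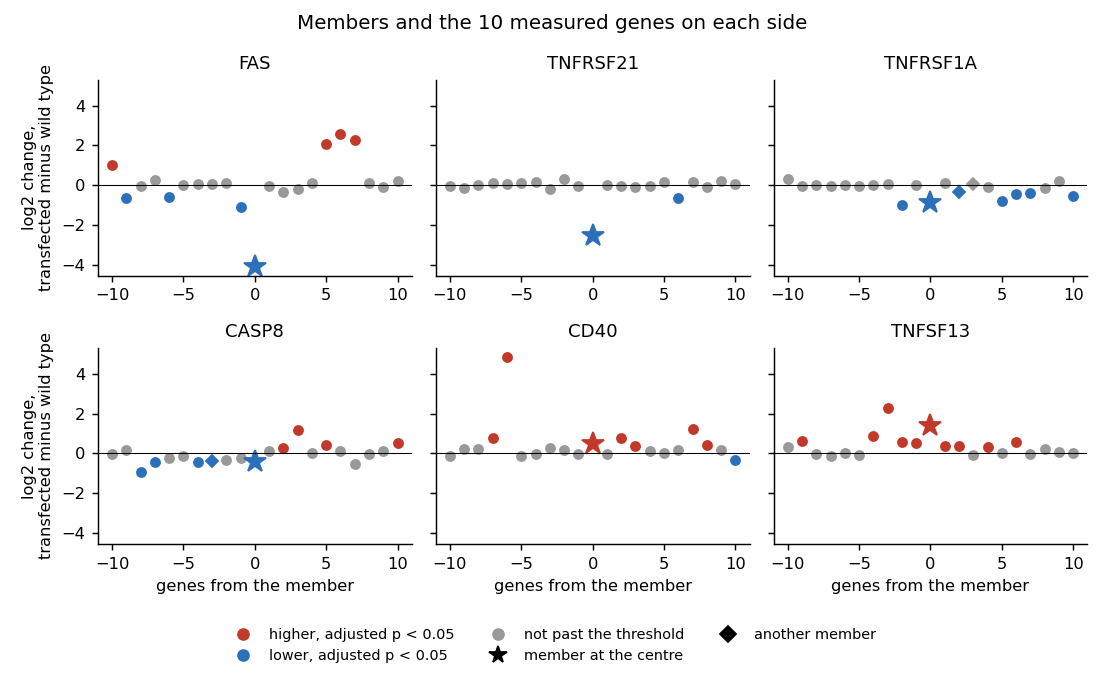
Log2 change (y axis) of 6 members (stars, position 0) and the 10 measured genes on each side in chromosome order (x axis, number of genes from the member). FAS and TNFRSF21 lie below all of their 20 neighbours, which were taken at any level. Around TNFSF13, 9 of the 20 were higher, beside 13.9% of all genes.

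Genes that work with the receptors were counted in 5 further lists, chosen with earlier results of these data known. Their counts stand beside 29.0% of all genes called (13.9% higher and 15.1% lower). Few genes of these lists were dim in both groups, and among all genes not dim in both groups the share called was 41.8%. Of 24 genes of the receptor complexes and NF-kappaB kinases, 11 rose, 4 fell and 9 did not pass (62.5% called), with a median log2 change of 0.25. The largest changes were rises of TNIP1, which restrains NF-kappaB together with A20 (1.33, limma adjusted p = 5.66e-05), the stress kinase MAP3K5 (1.27, 5.89e-05), the linear-ubiquitin protease OTULIN (1.10, 5.31e-05) and the ubiquitin ligase TRAF6 (0.85, 0.000671). Of 11 genes of death execution, 2 rose, 0 fell and 9 did not pass (18.2% called, beside 29.0% of all genes, median 0.04). With so few genes the difference in share was not tested. DIABLO, a mitochondrial antagonist of inhibitor-of-apoptosis proteins, rose by 0.71 (0.000329) and the caspase CASP6 by 0.44 (0.0162). CASP10, the receptor-recruited relative of CASP8, read -0.23 without passing (0.285).

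The sheddases ADAM10 and ADAM17 were higher. Of 6 genes of ligand and receptor shedding, 3 rose and 1 fell (66.7% called, median 0.42). ADAM10, which sheds several superfamily members, read 10.16, 10.26 and 10.11 in transfected cells, against 8.52, 8.77 and 8.56 in wild type cells (log2 change 1.56, limma adjusted p = 2.96e-05). ADAM17, the TNF-converting enzyme, rose by 0.90 (0.000842) and the proprotein convertase FURIN by 0.70 (0.00279), while TIMP3, an inhibitor of ADAM17, fell by 0.36 (0.0272). The TIMP3 call was lost without wild type replicate 1 or 2 and without transfected replicate 2 or 3. Of 25 genes listed as induced by TNF, 16 rose, 1 fell and 8 did not pass (68% called, median 0.97). The list includes RELA, TNFAIP3 is counted with the receptor complexes, and whether TNF induces each gene in these cells was not tested. CCL20 rose by 4.09, CXCL1 by 3.35, CXCL3 by 2.96 and LIF by 2.75. The cause of these rises was not tested. The list of 8 superfamily genes outside the 44 had 2 that rose, TNFSF12 and RELT (0.33, adjusted p = 0.0227), 0 that fell and 6 that did not pass. The share called was 25%, near the 29.0% of all genes, and the median was 0.10. In all genes the median change was 0.001.

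**Figure D5:**
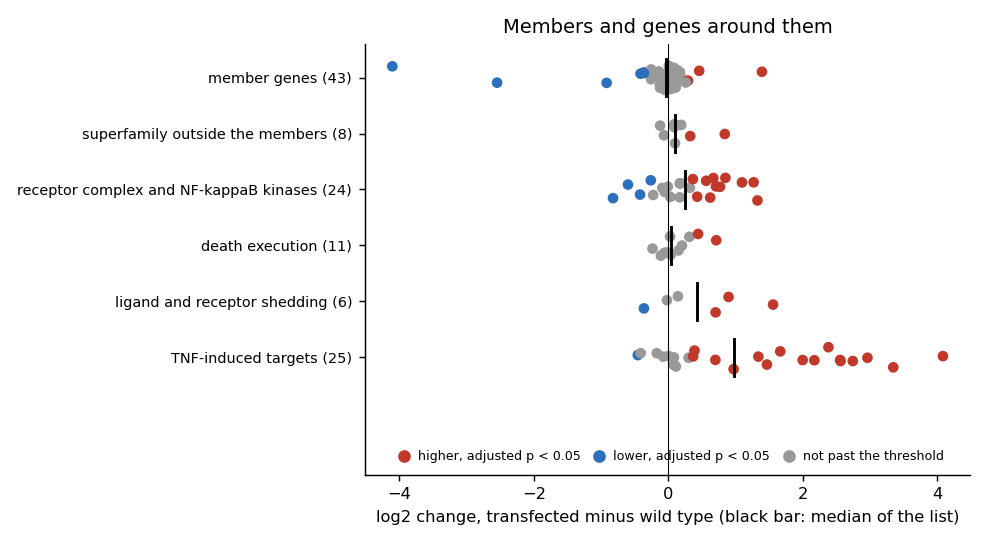
Log2 change (x axis) of the members and of the genes of 5 further lists, 1 point per gene and a black bar at the list's median. The TNF-induced genes have a median of 0.97 with 16 of 25 higher, beside a median of -0.03 for the 43 members. Of all genes 13.9% were higher.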

How the data were processed

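The authors deposited log2 values for each probe set and array, made with RMA per the submitters' processing notes, which give no version. On wild type replicate 3, 6354 values had more than 2 decimals, and on the other arrays 0 had. The reason was not tested. RMA subtracts background, forces the arrays to 1 distribution and summarizes the probes of each set. Values ran from 2.35 to 14.62, with array medians of 4.80 to 4.85. Arrays have no read depth, and their number limits the precision. The 62 control probe sets were left out.

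Genes were named by the platform annotation, updated by gene identifier (41037 of 41091 probe sets with 1 gene). The brightest probe set naming a gene alone, or failing that with others, stood for the gene. The groups were compared with limma 3.58.1 in R 4.3.3 (two-sided, no covariate), which was tested on simulated data. Every member is named, and up to 4 called genes of each further list with the largest changes. Members and lists were chosen with earlier results of these data known.

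Because the groups share replicate numbers, the deviations of same-numbered arrays from the group means were correlated. The correlations were 0.398, 0.238 and 0.140 for numbers 1, 2 and 3, against -0.277 to 0.142 for other pairs. The labels do not say what a number stands for. The alternatives were a replicate block, other normalizations, variance priors, array weights, filters, probe set choices, subtraction of the neighbours' shift and leaving out each array.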

Additional observations from a re-analysis of the deposited data

How the results depend on the processing

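With the replicate number as a block, 3 member genes were higher and 6 lower, as without it, 9 member probe sets were higher and 17 lower, and 2 TNF-induced genes were lower in place of 1. No called member lost its call under the block. Leaving out 1 array gave 2 to 3 member genes higher and 4 to 6 lower, and 5 to 8 member probe sets higher and 11 to 15 lower. It also gave 1 to 2 further superfamily genes higher, 1 to 3 death execution genes higher, 0 to 1 shedding genes lower and 0 to 1 TNF-induced genes lower. The lowest count of higher probe sets, 5, came without wild type replicate 2, and the count was 6 without wild type replicate 3. Leaving out every _x_at and _s_at probe set, 57 member probe sets and 38 member genes were left, with 3 probe sets higher and 3 lower and 1 gene higher and 2 lower. FAS then read 0.05 and CASP8 0.15, both from dim probe sets, and death execution had 1 higher, shedding 0 lower and TNF-induced genes 0 lower. The trend and robust prior gave 1 death execution gene lower, 0 shedding genes lower and 2 TNF-induced genes lower. TNF-induced genes also had 2 lower among probe sets over the median, with 1 probe set a gene in the fit and for the mean of a gene's probe sets. Further superfamily genes had 1 higher in the last 2 of these settings, where 6 of 8 could be measured, and 1 after the neighbours' shift was subtracted, as had death execution. TNFRSF21 and TNFRSF1A kept their calls and directions under all alternatives run, 17 and 16. The alternative that could not be run for TNFRSF1A is the one without _x_at and _s_at probe sets, since its only probe set ends in _s_at. Under that setting FAS, CASP8, CFLAR, TNFSF13 and TNFRSF1B lost their calls, while TNFRSF21, CD40 and LTBR kept theirs. Over the 14 alternatives of each of the other 3 FAS probe sets past the threshold, changes stayed between -3.95 and -2.83. The cause of lost calls was not tested.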

Other observations

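Several members lie in clusters of the family, and their changes are given side by side. In the gene cluster of chromosome 12, TNFRSF1A and LTBR fell by 0.92 and 0.36, and CD27, dim in both groups, changed by 0.04. TNF, LTA and LTB on chromosome 6, and TNFSF9, CD70 and TNFSF14 on chromosome 19, had no called member. TNFRSF11B on chromosome 8 lay among neighbours of which 10 of 20 were lower and 0 higher (median -0.26), while its own change was 0.09. Of all genes 15.1% were lower. After that median was subtracted, TNFRSF11B read 0.35 (limma adjusted p = 0.0284), from a probe set that was dim in both groups.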
